A study of Mus musculus with 6 samples.

Results

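The zinc finger genes whose mouse symbol is Zfp followed by a number were examined in 6 RNA libraries of melanoma tumours. The members are the table rows named in that way and chosen by their mean level, which had to reach 1 FPKM across all 6 libraries. FPKM is fragments scaled to transcript length and library depth. Zfp36, Zfp36l1, Zfp36l2, which belong to another class of zinc finger, and names holding "-ps" were left out. This gave 306 members, out of 388 such Zfp rows, 11241 tested genes (the same limit on the mean) and 20938 genes in the table. Their mean level is therefore described and not tested. Just inside the limit lay Zfp493 and Zfp708, both at a mean of 1.01 FPKM, and just outside it Zfp503 at 0.998 and Zfp456 at 0.928 FPKM. Of the 82 rows below the limit, 16 were at 0 in every library.

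The tumours grew from B16F10 cells, a mouse melanoma line, in male C57BL/6 mice aged 6 weeks, injected under the skin at the left hind leg and sampled on day 19. The labels give 3 control libraries and 3 libraries of cells overexpressing YKL-40, a secreted chitinase-like protein. All 6 samples carry the genotype label WT. The labels state neither the vector of the control cells, nor the species of the YKL-40 sequence, nor whether the cells came from 1 clone, nor whether each library stems from a mouse of its own. The spread behind each p-value is thus that between these libraries and may be technical. Chil1, the mouse gene of YKL-40, was listed at 0.0644, 0 and 0.0242 FPKM in the controls and at 0 in each YKL-40-labelled library. These values do not show the overexpression, and all directions below rest on the labels.

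Most proteins named Zfp carry zinc fingers of the C2H2 kind, short repeats in which a pair of cysteines and a pair of histidines hold a zinc ion and in which a few residues of each repeat contact DNA. Many also carry a KRAB box, which binds the corepressor Trim28. Trim28 brings the histone methyltransferase Setdb1 and HP1 proteins to the bound DNA, and KRAB zinc finger proteins are best known for silencing transposable elements and for keeping imprints. Members without a KRAB box include transcription factors and proteins that act on RNA, chromosomes or ubiquitin.

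The repeat itself is shown for 2 members with lower and 2 with higher values under the YKL-40 label, as a pair of neighbouring fingers from the coding sequence of each gene's longest GENCODE M21 transcript (GRCm38), read 5′ to 3′. Capitals mark the codons of the cysteines and histidines that hold the zinc.
Zfp37: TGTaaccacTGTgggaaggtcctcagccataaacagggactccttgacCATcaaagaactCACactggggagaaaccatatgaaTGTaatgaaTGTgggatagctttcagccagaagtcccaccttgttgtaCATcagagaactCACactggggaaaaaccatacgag
Zfp426: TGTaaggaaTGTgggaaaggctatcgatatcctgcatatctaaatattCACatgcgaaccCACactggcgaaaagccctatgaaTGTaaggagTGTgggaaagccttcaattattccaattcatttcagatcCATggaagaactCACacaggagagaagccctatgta
Zfp358: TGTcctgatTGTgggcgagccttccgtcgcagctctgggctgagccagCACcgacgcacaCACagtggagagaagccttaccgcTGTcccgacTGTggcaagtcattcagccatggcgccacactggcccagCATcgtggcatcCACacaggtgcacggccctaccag
Zfp691: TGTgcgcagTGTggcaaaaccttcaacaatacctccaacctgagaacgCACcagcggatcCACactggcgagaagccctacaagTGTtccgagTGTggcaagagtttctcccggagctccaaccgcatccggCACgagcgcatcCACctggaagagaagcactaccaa
The layout of cysteine and histidine codons is the same in each, while the GC content of the stretch differs, at 46.4% in Zfp37, 42.3% in Zfp426, 63.1% in Zfp358 and 56.5% in Zfp691. The whole transcripts had 39.4%, 43.6%, 57.0% and 53.5% GC in the same order. GC content of the transcript, not of the stretch, comes back below. The changes of the members and of the other tested genes both moved with it.

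A reading frame was found for 302 members, with a median of 10 fingers and a range from 0 to 36. A KRAB box was found by a sequence pattern in 166 of them and none in 136. Boxes that differ from the pattern would be missed, so members without a KRAB box are here those in which none was found. The members with a KRAB box had a median of 12 fingers and a median level of 2.78 FPKM. Those without had 7 fingers and 7.30 FPKM. The level of all members had a median of 4.47 FPKM, against 13.4 FPKM for all tested genes, and ran up to 147 FPKM. The members together took 0.617%, 0.536% and 0.537% of the summed FPKM of the controls and 0.458%, 0.521% and 0.511% of that of the YKL-40-labelled libraries. The 3 shares of the controls thus lay above the 3 others, with YKL-40-labelled library 2 coming nearest to them.

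Before any gene is taken singly, the libraries differed in a way that bears on all members. The first control had the highest value of all 6 libraries for 180 of 306 members (58.8%), and for 27.9% of all tested genes. YKL-40-labelled library 1 had the lowest value for 119 members. On the log2(FPKM + 1) scale, the median deviation of the members from their own mean was 0.18, 0.02 and 0.02 for controls 1 to 3, and -0.14, -0.04 and -0.06 for YKL-40-labelled libraries 1 to 3. The groups do not overlap in this median, but controls 2 and 3 lie much closer to YKL-40-labelled library 2 than to the first control. For all tested genes the controls stood at 0.04, 0.01 and 0.01 and the others at -0.04, 0.01 and -0.02. Members with a KRAB box deviated most in the first control, with a median of 0.22, and members without one by 0.13.

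**Figure D1:**
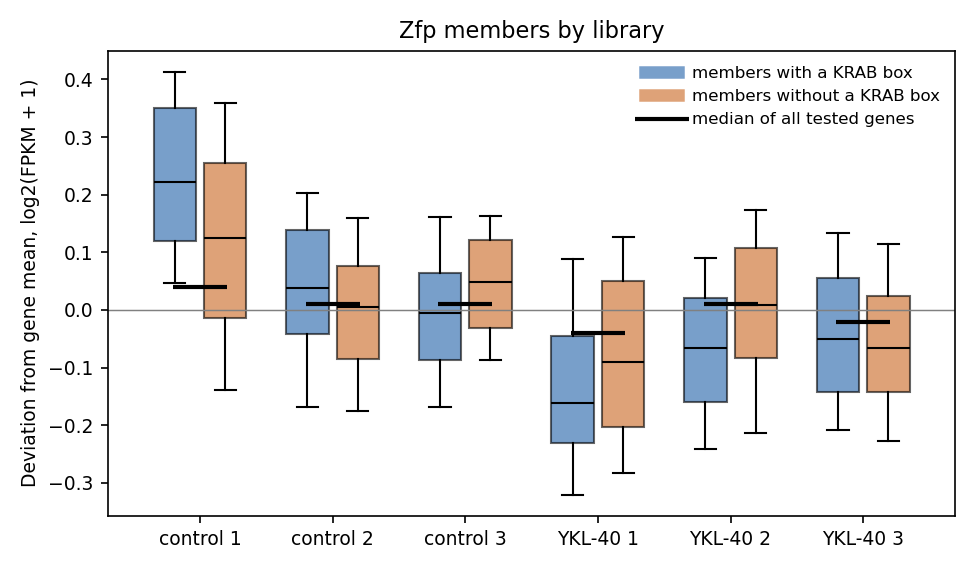
Deviation of each Zfp member from its mean over the 6 libraries, on the log2(FPKM + 1) scale, for 166 members with and 136 without a KRAB box (4 members with no reading frame are not drawn). Boxes span the quartiles with the median as a line, whiskers run from the 10th to the 90th percentile, and black bars give the median of all tested genes. The first control stands highest, and YKL-40-labelled library 1 lowest.

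To ask whether the Zfp genes differed between the groups, each tested gene was fitted with limma, and changes are given on the log2(FPKM + 1) scale, positive where the YKL-40-labelled libraries were higher. That scale understates the changes of low genes. The members leaned to lower values in the YKL-40-labelled libraries by small amounts. Their median change was -0.14, with quartiles at -0.26 and -0.02, and 244 of 306 (79.7%) had a change below 0. Over all tested genes the median was -0.04, with quartiles at -0.18 and 0.11, and the share below 0 was 57.8%. Of the members, 176 had a change of less than 0.2 in either direction and 11 one of more than 0.5. The median standard error of a single member was 0.13, about the size of the median change.

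No member passed the test. With p-values adjusted over all tested genes by the Benjamini-Hochberg method, limma called 0 of 306 members, beside 0.436% of all tested genes (0.365% higher, 0.0712% lower). At an unadjusted p under 0.05 in limma, 49 of 306 members were lower and 6 (1.96%) higher, beside 9.24% lower and 8.71% higher among all tested genes. The 3 values of each group did not overlap for 83 members that were lower (27.1%) and 7 that were higher (2.29%), beside 14.2% and 10.3% of all tested genes. Without the first control, 27 of 302 members (8.94%) were lower and 5 (1.66%) higher at an unadjusted p under 0.05, beside 5.83% and 6.73% of all genes tested in that fit. Without it the groups did not overlap for 91 members on the lower side (29.7%, all tested genes 18.7%) and for 22 on the higher side (7.19%, all tested genes 14%). With array quality weights, which give each library a weight from its scatter, limma called 19 members (6.21%, all tested genes 9.88%), 17 of them lower (5.56%) and 2 higher (0.654%), beside 3.97% lower and 5.92% higher of all tested genes.

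**Figure D2:**
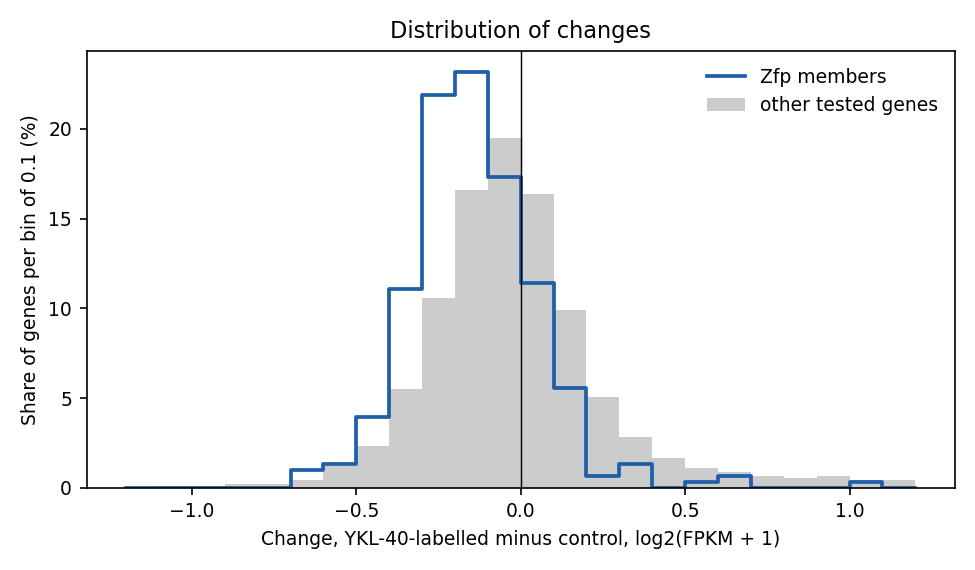
Share of genes (%) in bins of 0.1 of the change (log2(FPKM + 1), YKL-40-labelled libraries less controls), for the 306 Zfp members (blue line) and the other 10935 tested genes (grey bars). Changes beyond 1.2 in either direction are not drawn. The members' distribution has its median at -0.14 and a short upper side, against a median of -0.04 for the other genes.

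The lean to lower values was found at every level. At a mean of 1 to 2 FPKM, 74 members had a median change of -0.14, and the other tested genes of that level 0.03. At 2 to 5 FPKM, 97 members had -0.12, against -0.02 for the others. At 5 to 10 FPKM, 71 members had -0.16, against -0.05. At 10 FPKM and more, 64 members had -0.19, against -0.05, and 84.4% of them had a change below 0 (59.4% of the other genes). Below the limit, 66 Zfp rows above 0 had a median change of -0.02, where the added 1 FPKM outweighs the values themselves, and 69.7% of them were below 0, against 44.3% of the 5110 other such rows.

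Scaling the libraries in other ways moved members and other genes together. With the same sum of FPKM in each library the members' median was -0.14 and that of the other tested genes -0.04. With median of ratios scaling it was -0.12 against -0.01, with the same upper quartile -0.13 against -0.02, and with the same median -0.12 against -0.01. The difference of medians thus stayed between -0.10 and -0.11, and the direction of the members' median was the same at each level under each of these scalings. Leaving out the first control had a larger effect. The members' median was then -0.09, with 69.5% of 302 members below 0, against -0.03 and 55.4% for the other tested genes. The difference of medians was -0.06. By level the members had -0.06 at 1 to 2 FPKM, -0.07 at 2 to 5, -0.10 at 5 to 10 and -0.15 at 10 FPKM and more. The other genes had 0.03, -0.01, -0.03 and -0.03 in the same order.

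**Figure D3:**
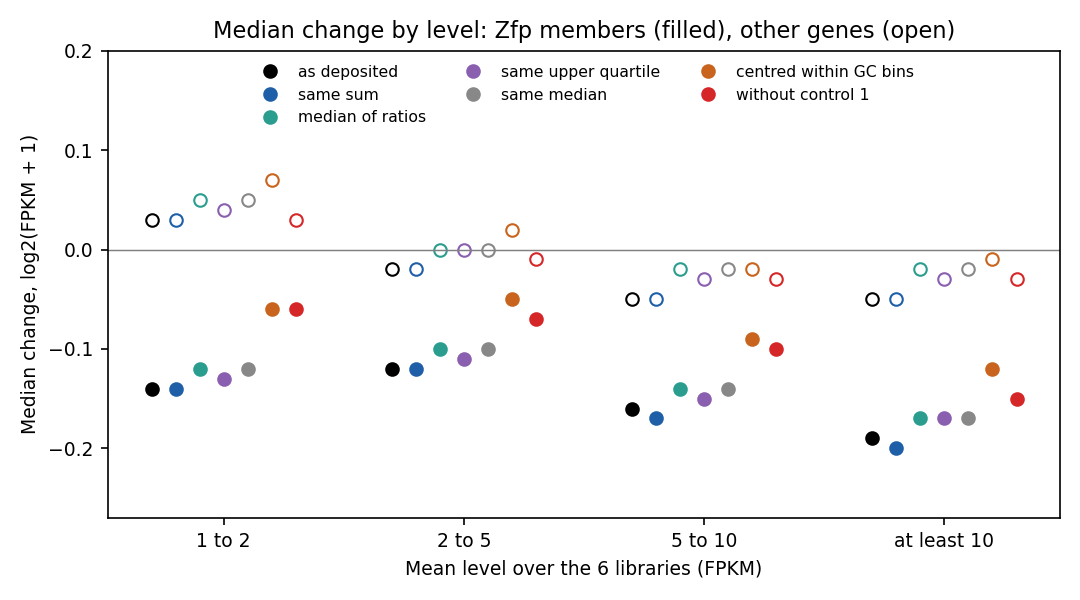
Median change on the log2(FPKM + 1) scale for Zfp members (filled) and other tested genes (open) in 4 classes of mean level, with the values as deposited, under 4 scalings, centred within classes of GC content, and without the first control. Filled points lie below open ones in each class, and they lie nearest to 0 after GC centring or without the first control.

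The GC content of the transcript moved with these changes. The members are rich in low-GC transcripts, with a median GC of 43.7% over 304 members with a transcript in GENCODE M21, against 49.6% over all tested genes, and 153 of them (50.3%) fall in the lowest of 5 equal GC classes of all tested genes. In that class, from 31.0% to 43.7% GC, the members had a median change of -0.20 and the other genes -0.11. The next classes gave -0.16 against -0.08, -0.13 against -0.03 and -0.06 against 0.01. In the highest class, from 55.4% to 68.7% GC, the members had -0.06 and the others 0.03. The members' median was therefore below that of the other genes in each GC class, by a similar amount, while both moved toward 0 or above it with rising GC. At an unadjusted p under 0.05, 31 of 153 members (20.3%) were lower in the lowest class, beside 333 of 2080 other genes. In the highest class 2 of 42 members (4.76%) were, beside 4.44% of the others.

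The libraries differed along GC in all genes. Among other tested genes in the lowest GC class, the median deviation from the gene mean was 0.14, 0.05 and -0.02 for controls 1 to 3, and -0.05, -0.11 and 0.01 for YKL-40-labelled libraries 1 to 3. In the highest class the controls stood at -0.06, -0.02 and 0.04 and the others at 0.00, 0.10 and -0.05. The first control and YKL-40-labelled library 2 thus stand at opposite ends, and the order of the other libraries does not follow the groups. Each library was then centred on the genes of the same of 10 GC bins, an alternative chosen after the data were seen. The members' median change was then -0.08, with 68.4% below 0, against 0.00 and 51.0% for all tested genes. With GC centring and without the first control it was -0.04, with 60.9% below 0. By level the members then had -0.01 at 1 to 2 FPKM, -0.01 at 2 to 5, -0.05 at 5 to 10 and -0.10 at 10 FPKM and more, where the other genes had 0.05, 0.01, 0.00 and -0.01.

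**Figure D4:**
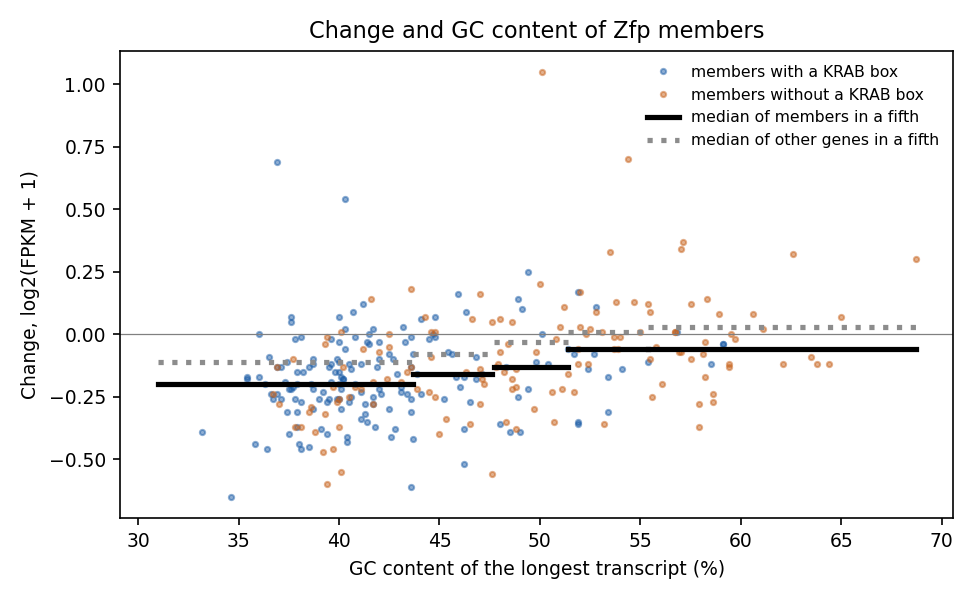
Change on the log2(FPKM + 1) scale against GC content (%) of the longest transcript, 1 point per Zfp member with a reading frame, with and without a KRAB box. Black bars are the median of the members, and grey dotted bars that of the other tested genes, in 5 equal GC classes of all tested genes. Both run from -0.20 and -0.11 in the lowest class to -0.06 and 0.03 in the highest.

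Members with a KRAB box had a median change of -0.17, and 145 of 166 (87.3%) were below 0. Members without one had -0.12, and 95 of 136 (69.9%) were below 0. The KRAB members also had the lower GC, with a median of 41.2% against 48.8%, and 116 of them against 37 fell in the lowest GC class. Within that class the medians were -0.20 with and -0.21 without a KRAB box. The next classes gave -0.16 and -0.18, -0.12 and -0.13, and -0.14 and 0.01. In the highest class the medians were -0.04 and -0.06. They differed most in the class from 51.4% to 55.4% GC, with 11 members with and 20 without a KRAB box. After GC centring the medians of all members with and without a KRAB box were -0.08 and -0.08. The difference between these classes of members was described and not tested. By number of fingers, the 44 members with 0 to 4 had a median change of -0.09 and the 88 with 5 to 9 one of -0.14. The 110 with 10 to 14 had -0.17 and the 60 with 15 or more -0.14. The median GC of these classes was, in that order, 48.7%, 46.9%, 42.0% and 40.9%. After GC centring their median changes were -0.08, -0.09, -0.08 and -0.08.

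Genes with the same kind of finger but other names had median changes from -0.26 to -0.04. Outside the members, 34 tested genes with 3 or more fingers had a KRAB box, and their median change was -0.26, with 30 of 34 below 0 (-0.15 after GC centring). The other 126 genes with 3 or more fingers and no KRAB box had -0.07. The 35 Zbtb genes, in which fingers are joined to a BTB domain, had -0.11. The 16 Zkscan and Zscan genes, with a SCAN domain, had -0.06, and the 13 Klf genes -0.04. None of these counts was tested against the members.

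KRAB zinc finger genes lie in clusters made by tandem duplication. With neighbours at most 500 kb apart and at least 6 members, 10 clusters were found (GRCm38.p6). The largest, on chromosome 17 from 21008941 to 23599755, held 23 members, 22 with a KRAB box, and had a median change of -0.13 (-0.02 after GC centring). The next, on chromosome 13 from 67069398 to 67789082, held 17 members, all 17 with a KRAB box, and had -0.11 (0.02 after GC centring). Those 2 clusters thus stood near 0 once genes of like GC were compared. A cluster of 8 members on chromosome 7 from 24081877 to 24515682 had a median of -0.22 (-0.15 after GC centring), with 8 of 8 below 0. Another on chromosome 7, from 4915181 to 5053723, held 6 members, 0 with a KRAB box, had a median GC of 61.2% and a median change of 0.00.

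Copies of such duplications can share reads. Of 304 members, 74 shared at least 5% of the 50-base words of their longest transcript with another gene, and 40 at least 20%, so how reads were divided between copies is uncertain for these. The 230 members with less than 5% had a median change of -0.13, and the 74 others -0.17. Their median GC was 45.8% and 40.0%, and after GC centring the medians were -0.08 and -0.07.

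Among single members, the largest differences toward lower values, with groups that do not overlap, were led by Zfp469, whose human counterpart is linked to brittle cornea syndrome (GRCm38.p6, as for all positions; chromosome 8, 122043123 to 122272650). Controls 1 to 3 had 11.6, 9.51 and 17.2 FPKM, and YKL-40-labelled libraries 1 to 3 had 7.5, 8.39 and 6.18. Control 3 is far above the others, and the change was -0.69 (SE 0.21, limma adjusted p = 0.163).

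Zfp979, a KRAB gene (chromosome 4, 147611936 to 147642508), had 2.10, 2.87 and 2.47 against 1.38, 1.14 and 1.13 FPKM, a change of -0.65 (SE 0.14, limma adjusted p = 0.0858). It shared 21.5% of its words with other genes. Zfp426, a KRAB gene (chromosome 9, 20468549 to 20492746), had 13.6, 13.1 and 13.4 against 4.28, 11.2 and 11.9 FPKM. Its change of -0.61 (SE 0.32, limma adjusted p = 0.364) rested on YKL-40-labelled library 1, without which it was -0.19.

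Zfp37 (chromosome 4, 62189537 to 62209129) had 3.50, 2.46 and 2.49 against 1.58, 1.87 and 1.11 FPKM, a change of -0.60 (SE 0.17, limma adjusted p = 0.150). Zfp365, a protein that binds DISC1 (chromosome 10, 67886105 to 67912662), had 9.24, 7.54 and 8.04 against 5.71, 5.35 and 4.77 FPKM, a change of -0.56 (SE 0.12, limma adjusted p = 0.0845). Zfp638, an RNA- and DNA-binding nuclear protein that works with the HUSH silencing complex on retroviral DNA (chromosome 6, 83867068 to 83986871), had 34.3, 34.1 and 29.4 against 19.3, 23.3 and 23.5 FPKM, a change of -0.55 (SE 0.11, limma adjusted p = 0.0845). For Zfp365 and Zfp638 the gap between the groups was wider than the range within either group, while the 3 controls of Zfp37 lay further apart than that. The changes of Zfp37, Zfp365 and Zfp638 after GC centring were -0.47, -0.50 and -0.42. The member of lowest p, named after its values were seen, was Zfp84, a KRAB gene of chromosome 7, at 9.14 ± 0.604 against 6.08 ± 0.279 FPKM (SD, n = 3; change -0.52, limma adjusted p = 0.078).

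**Figure D5:**
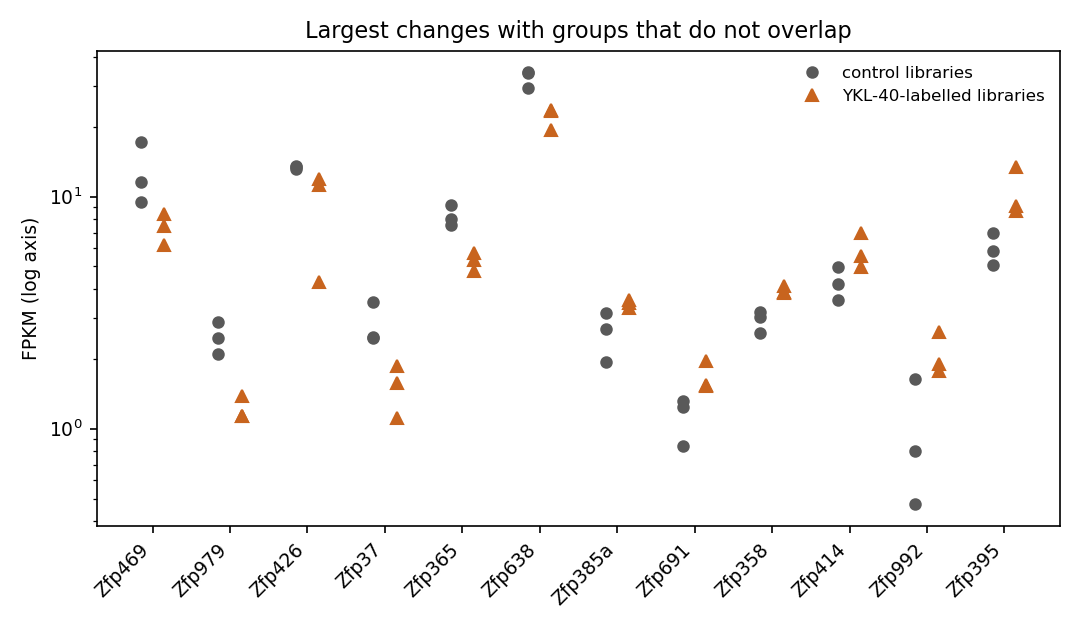
FPKM in each library (log axis) of the 6 Zfp members with the largest negative and the 6 with the largest positive change among those whose groups do not overlap, ordered by change. Circles are the 3 controls and triangles the 3 YKL-40-labelled libraries. In Zfp426, 1 YKL-40-labelled library at 4.28 FPKM lies far below the other 2.

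Few members were higher. Zfp395, a transcription factor known to be induced by hypoxia (chromosome 14, 65358676 to 65398930), had 5.81, 5.05 and 6.98 against 13.4, 8.67 and 9.12 FPKM. Its change was 0.70 (SE 0.18, limma adjusted p = 0.121), 0.68 after GC centring, and passed with array quality weights (limma adjusted p = 0.0307). Zfp992, a KRAB gene of the chromosome 4 family (146449030 to 146469440), had 0.474, 0.801 and 1.64 against 2.62, 1.78 and 1.90 FPKM, with 43.0% of its words shared. Its change was 0.69 (SE 0.23, limma adjusted p = 0.198).

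The other differences toward higher values were smaller. Zfp414 had 4.26 ± 0.690 against 5.82 ± 1.01 FPKM (SD, n = 3) and shares 44.0% of its words. Zfp358 had 2.93 ± 0.311 against 3.95 ± 0.132, and Zfp691 had 1.13 ± 0.253 against 1.68 ± 0.246 FPKM. Zfp385a, a p53-induced protein that steers p53 toward cell cycle arrest genes, had 2.60 ± 0.617 against 3.46 ± 0.146 FPKM. Their changes of 0.37, 0.34, 0.33 and 0.32 did not pass (limma adjusted p from 0.194 to 0.314), and that of Zfp385a was 0.18 without the first control. Of these 6 higher members, 5 had transcripts of 53.5% GC or more, the exception being Zfp992 at 36.9%. Of the 6 lower members, 5 had 34.6% to 47.6% GC, the exception being Zfp469 at 57.7%.

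Zfp521, a regulator of blood progenitors and of mesenchymal cells, had the largest change of any member, 1.05 (SE 0.34, limma adjusted p = 0.186). Its levels were 1.29, 1.28 and 2.37 against 2.25, 4.67 and 7.39 FPKM. The groups overlap, since control 3 exceeds YKL-40-labelled library 1. Its change was 0.72 without YKL-40-labelled library 3.

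By known role, the members that guard imprints or silence retroelements were lower by small amounts or near 0. Of the 10 on the list, 5 were below the limit, and 0 of the 5 tested were past either p in limma. Among all tested genes 0.436% passed at the adjusted p and 18.0% had an unadjusted p under 0.05. With so few genes, a count of 0 says little about them. Zfp445, which protects imprints together with Zfp57, had 34.0 ± 5.08 against 33.3 ± 4.30 FPKM (SD, n = 3). Zfp57 itself lay below the limit at 0.917 ± 0.140 against 0.784 ± 0.172 FPKM. Zfp809, which silences murine leukaemia viruses, had 4.82, 4.67 and 5.83 against 2.98, 4.49 and 4.96 FPKM, with overlapping groups, and its change of -0.26 was -0.09 without YKL-40-labelled library 1. Zfp568, the repressor of a placental Igf2 transcript, had 6.37 ± 0.152 against 5.62 ± 0.412 FPKM, and Zfp932, which acts on endogenous retroviruses, 5.14 ± 0.933 against 3.93 ± 0.113, with 45.2% of its words shared. In both the groups did not overlap, and the limma adjusted p was 0.447 and 0.285. The change of Zfp932, -0.31, was -0.20 without the first control.

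Of 34 transcription regulators without that role, 31 were tested and 0 passed in limma, beside 0.436% of all tested genes. At an unadjusted p under 0.05 in limma, 4 were lower (12.9%) and 2 higher (6.45%), beside 9.24% and 8.71% of all tested genes. Their median change was -0.14. The 2 higher ones were Zfp395 and Zfp521. Zfp467, which promotes fat cell formation, had 4.64 ± 0.615 against 3.36 ± 0.209 FPKM. Of 18 members that act on RNA, ribosomes, ubiquitin or the spindle, 17 were tested and 0 passed in limma, with 4 lower (23.5%) and 0 higher at an unadjusted p under 0.05, beside the same shares of all tested genes, and a median change of -0.15. Zfp207, a kinetochore protein that binds Bub3, had 101, 97.2 and 94.0 against 76.9, 80.3 and 83.4 FPKM, a change of -0.28 (limma adjusted p = 0.162).

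The most abundant members on the per-length scale were Zfp106, an RNA-binding protein needed by muscle and motor neurons, at 156 ± 5.73 against 138 ± 10.0 FPKM (SD, n = 3), then Zfp207. Zfp871 followed at 65.8 ± 12.2 against 68.7 ± 11.4, Zfp507 at 62.7 ± 4.79 against 57.8 ± 7.52 and Zfp706 at 59.4 ± 3.33 against 53.7 ± 6.18 FPKM. The values of the last 3 overlap between the groups and with each other in level. Of these 5 genes, 0 passed in limma and 1, Zfp207, had an unadjusted p under 0.05. The shares of all tested genes were 0.436% and 18.0%.

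The partners of KRAB proteins showed no change past the test. Of 40 corepressor genes, 0 passed in limma, beside 0.436% of all tested genes, a share at which a count of 0 says little. At an unadjusted p under 0.05 in limma, 5 were lower (12.5%) and 1 higher (2.5%), beside 9.24% and 8.71% of all tested genes. Their median change was -0.07. With array quality weights 3 passed (7.5%, all tested genes 9.88%), all 3 lower. Trim28 had 68.6 ± 4.17 against 73.6 ± 5.64 FPKM (SD, n = 3) and Setdb1 44.8 ± 3.30 against 41.0 ± 1.12. The lowest p belonged to Mphosph8, the HUSH subunit that reads methylated histone H3, with 33.1, 30.1 and 25.6 against 19.6, 20.7 and 19.8 FPKM. Its groups do not overlap, and its change was -0.53 (SE 0.11, limma adjusted p = 0.0845). Smarcad1, a remodeller that binds Trim28, had 67.8 ± 4.73 against 53.7 ± 2.34 FPKM, and Morc2a, which HUSH recruits, 21.2 ± 0.819 against 17.0 ± 1.32. Tasor and Pphln1, the other HUSH subunits on the list, had changes of 0.10 and -0.04, with overlapping groups. The 1 higher gene was Daxx, at 13.1 ± 0.68 against 15.7 ± 1.11 FPKM.

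These are whole tumours, in which fewer cells of a type and less RNA per cell cannot be told apart, and the summed markers of some other cell types did not overlap between the groups. Melanocyte markers summed to between 9568 and 11930 FPKM, with overlapping groups and 0 of 10 at 0. The 15 macrophage markers summed to 71.7 to 202 FPKM in the controls and 243 to 391 in the YKL-40-labelled libraries, and 14 T cell markers to 2.48 to 6.56 and 13.2 to 33.3. The 10 cytotoxic cell markers summed to 0.331 to 1.25 and 8.87 to 29.1, and 8 class II genes to 60.9 to 91.5 and 523 to 1956. Of these lists, 2 of 4 tested cytotoxic and 5 of 8 tested class II genes passed in limma, beside 0.436% of all tested genes. Only 3 T cell and 14 macrophage markers were tested, and 0 of them passed. The 13 fibroblast markers summed to 60.6 to 318 and 290 to 481, with overlapping groups. The 20 skeletal muscle markers summed to 60.8 to 246 and 11.9 to 42.4. None of the markers named so far was at 0 in all libraries. Endothelial sums (67.3 to 142 and 97.5 to 123), B cell sums (0.76 to 1.78 and 1.13 to 1.81) and neutrophil sums (0.659 to 15.2 and 2.01 to 7.83) overlapped, with the neutrophil markers Ly6g and Elane at 0 throughout. The first control had the lowest macrophage, T cell and cytotoxic sums of the 6 libraries. The part of these cells in the members' values was not tested.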

How the data were processed

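Tumour RNA was sequenced from 6 libraries made with a TruSeq kit from 2 µg of RNA, per the labels' protocols. The kit keeps no strand, so reads of a gene and its antisense partner cannot be told apart. The authors deposited 1 FPKM value per gene and library. Build mm10 and, with no role given, limma, DESeq2, StringTie, HISAT2 and bcl2fastq 2.0 are listed per the submitters' processing notes. How transcripts were combined and the annotation are not given in the sources used here. Read depth is unknown, so no counting interval is given.

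From these values log2(FPKM + 1) was fitted with limma 3.58.1 in R 4.3.3, with a variance trend, over the 11241 genes whose mean reached 1 FPKM. Tests were two-sided with a threshold of 0.05 after Benjamini-Hochberg adjustment over all tested genes. On simulated data of 11241 genes in 5 runs, the fit recovered 75.4% of changes of 1 and 94.6% of changes of 2 on the log2 scale. Of its calls, 4.49% were false. The simulation drew the noise of each gene on its own, while the real libraries shifted along GC in many genes together. Its rates may therefore not hold for these data. Most members had far smaller changes than those simulated.

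Fingers and KRAB boxes were counted by sequence patterns in the longest reading frame of each gene's GENCODE M21 transcripts. GC content and shared 50-base words come from its longest transcript. All 306 members had a position in RefSeq (GRCm38.p6), 304 a transcript and 302 a reading frame.

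The rule for naming genes took members past the threshold, the 6 largest increases and 6 largest decreases with groups that do not overlap, the 5 most abundant, those next to the limit, the 3 of lowest p in each role list, and Zfp57, Zfp445, Zfp809, Trim28, Setdb1 and Chil1. Zfp84 was added after its values were seen. The members and lists were chosen with earlier results of these data known, so lists are described by counts and medians without a test. Alternatives were other pseudocounts, filters, scalings and variance models, a replicate block, each library left out, GC centring and members with few shared words.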

Additional observations from a re-analysis of the deposited data

How the results depend on the processing

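The count of all tested genes called was 49. It was 1111 with array quality weights, 120 with the replicate number as a block, 1 without a filter, 1 with GC centring, and between 0 and 238 when 1 library was left out. It was 1 with GC centring and without the first control. The count of members called was 0 in every fit except that with array quality weights (19). Corepressor genes called were 0, but 3 with array quality weights, and from 0 to 1 when 1 library was left out (1, Mphosph8, without the third control, limma adjusted p = 0.0487).

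The members' median change stayed below 0 under each alternative. It lay between -0.18 and -0.09 when 1 library was left out, the latter without the first control, at -0.19 with a pseudocount of 0.1 or 0.01, at -0.11 with array quality weights, and at -0.04 (60.9% below 0) with GC centring and without the first control. Among members at 1 to 2 FPKM it was -0.24 with a pseudocount of 0.01.

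Small changes turned their sign. Zfp445 (-0.03) was at 0.18 with array quality weights, 0.07 with GC centring, 0.14 with GC centring and without the first control, 0.07 without the first control and 0.06 without YKL-40-labelled library 1. Zfp871 (0.07) was at -0.07 without the second control and -0.06 without YKL-40-labelled library 3, and at 0.20 without the first control, 0.34 with array quality weights and 0.28 with GC centring and without the first control. Zfp493 (-0.11) was at 0.02 with GC centring, with or without the first control. The cause was not tested, and none of the other named genes turned. With array quality weights Zfp395, Zfp979, Zfp37, Zfp365, Zfp638, Zfp521, Zfp84, Mphosph8, Smarcad1 and Morc2a passed.

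The replicate block is no pairing by design. Same-numbered libraries had correlations of -0.0832, -0.185 and 0.0017 between their deviations from the group means, and with the block 0 members passed and their median change was -0.14. The fit without a filter adds genes near 0, where 1 FPKM outweighs the values. With 3 libraries per group and unknown depth, changes as small as those of most members could not be called singly.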
